A study of Homo sapiens with 24 samples.

Results

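Expression of 40 named genes of glycolysis and the hypoxia response was followed through parental and neratinib-resistant cells of human carcinoma lines. The genes were taken by symbol from the 39786 genes of the deposited count table, and all 40 symbols were found. They comprise 23 enzymes and transporters of glycolysis and 17 hypoxia genes that are not glycolytic. The cells were 5637, a bladder carcinoma line, and OVCAR8, a line of ovarian carcinoma. Neratinib is an irreversible inhibitor of the EGFR, HER2 and HER4 kinases. The 8 groups of 3 libraries were parental cells without drug (parental control), parental cells with neratinib, resistant cells (NR) without drug (NR control) and NR cells with neratinib, each in both lines. Neratinib was given for 24 h, at 600 nM in 5637 and at 1 µM in OVCAR8, so the lines also differ in dose. NR cells had grown free of drug for 1 week before seeding. The sources used here do not say whether an NR line is 1 clone or a mixture, nor how long it was selected. Libraries of a group came from dishes seeded in triplicate, so each p-value measures only the spread between these samples, which may be technical.

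Glycolysis breaks glucose down to pyruvate. Glucose enters through carriers of the SLC2A family and is phosphorylated by hexokinases, and phosphofructokinase commits the sugar to the pathway. Lactate dehydrogenase then turns pyruvate into lactate, which leaves the cell through the monocarboxylate carriers SLC16A1 and SLC16A3. The transcription factors HIF1A and EPAS1 (HIF-2 alpha) are destroyed in the presence of oxygen after hydroxylation by EGLN enzymes. When stable, they pair with ARNT and bind DNA at sites with the core letters ACGTG or GCGTG in many glycolytic genes and in genes of mitophagy, pH control and pyruvate use. In cancer cells both programmes also respond to growth factor and mTORC1 signalling. Only RNA was measured here, and no HIF protein, oxygen level, glucose uptake or lactate was analysed.

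Library totals ran from 23849832 to 48486296 counts. Levels are given as CPM, a gene's count per 1000000 counts of its library, and group levels as mean ± SD of 3 libraries. In OVCAR8, parental control replicate 2 stood apart. Its share of non-mitochondrial counts in genes longer than 8 kb was 15.4%, whereas the remaining 11 OVCAR8 libraries had 22.2% to 23.1%. That library also enters the error of every comparison in its line. Counts of members called within OVCAR8 are therefore given with and without it, as are the genes it moved most. Counts over both lines and other OVCAR8 values include it unless stated. The line labels were checked by markers. In 5637 the urothelial genes KRT5, TP63 and PPARG were at medians of 2588, 160.7 and 111.1 CPM, while the uroplakins UPK1A and UPK3A stayed at or below 0.623 CPM. In OVCAR8 the Müllerian markers PAX8 and MSLN were at medians of 105.9 and 259.9 CPM, while MUC16, SOX17 and EMX2 stayed at or below 0.22 CPM. FOLR1 was at a median of 7.79 CPM. Other genes of the ovarian list had higher medians in 5637 than in OVCAR8, with values of 201.9 and 0.0258 CPM for MUC16, 10.6 and 2.24 CPM for WT1, 5.97 and 0.123 CPM for ESR1, and 2362 and 922.9 CPM for KRT7, a gene of both lists. The summed ovarian list was also higher in parental controls of 5637 (2924 to 3104 CPM) than of OVCAR8 (1526 to 2101 CPM), so the list as a whole did not set OVCAR8 apart. The leukocyte genes PTPRC and CD3E stayed at or below 0.125 CPM in all libraries. The fibroblast-associated collagen gene COL1A1 was present at 42.3 to 256.5 CPM in 5637 and 716.6 to 1262 CPM in OVCAR8, while COL3A1 stayed at or below 0.049 CPM.

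Of the 40 genes, 37 passed the low-count filter in 5637 and 36 in OVCAR8. The exceptions in both lines were PGK1 (phosphoglycerate kinase), TPI1 (triosephosphate isomerase) and ENO2 (the neuronal enolase). In OVCAR8 the carbonic anhydrase gene CA9 was also not tested. PGK1 (ENSG00000102144.9, hg19 chromosome X, 77320685 to 77384793) was listed with 1 count in all 24 libraries together, TPI1 (ENSG00000111669.10, hg19 chromosome 12, 6976283 to 6980112) with 12 and ENO2 (ENSG00000111674.4, hg19 chromosome 12, 7022909 to 7032861) with 4. TPI1 and ENO2 lie in a run of 12 neighbouring genes that each stayed under 0.2 CPM in every library, among them USP5, CDCA3 and ATN1. PGK1 lies in such a run of 7 genes, with MAGT1 and ATP7A. The limit of 0.2 CPM was chosen after these values were seen. PGK1 and TPI1 encode enzymes that glycolysis cannot do without, so these 3 genes are described only as listed at or near 0. Pseudogenes named after TPI1 (4) and PGK1 (1) held 37150% and 13100% of the counts of these genes. The cause was not tested, and nothing is drawn on their expression.

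The promoters of 6 members are shown as examples. The first 5 of these genes fell with neratinib in resistant cells of both lines, whereas LDHB fell in 5637 and had no call in OVCAR8. SLC2A1, GPI, PFKFB4 and PGAM1 also fell in both lines and are not shown, and SLC2A3, which did too, had no entry. A link between matches and the drug response was not tested, and these 6 picked windows cannot show one. The sequences are RefSeq windows of GRCh38.p14, from 250 bases before to 50 bases after an annotated start, 5′ to 3′ on the gene's strand (the count table is on hg19). Capitals mark ACGTG on either strand (ACGTG or CACGT). The palindrome CACGTG holds a match on each strand and so counts as 2. Where a gene has several windows, the one with most matches was picked after the matches were seen.
LDHA: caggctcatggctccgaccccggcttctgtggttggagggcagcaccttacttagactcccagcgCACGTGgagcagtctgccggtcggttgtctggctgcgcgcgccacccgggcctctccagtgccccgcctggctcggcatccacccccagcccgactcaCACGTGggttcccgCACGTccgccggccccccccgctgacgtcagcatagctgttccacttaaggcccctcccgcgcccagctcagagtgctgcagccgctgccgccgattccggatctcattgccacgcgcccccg
HK2: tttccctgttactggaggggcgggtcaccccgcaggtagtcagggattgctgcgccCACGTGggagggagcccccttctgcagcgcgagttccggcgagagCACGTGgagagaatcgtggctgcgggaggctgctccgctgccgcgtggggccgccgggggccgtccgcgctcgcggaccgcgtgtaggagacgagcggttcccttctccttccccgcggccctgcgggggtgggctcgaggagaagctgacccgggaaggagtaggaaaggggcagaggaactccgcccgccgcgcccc
BNIP3: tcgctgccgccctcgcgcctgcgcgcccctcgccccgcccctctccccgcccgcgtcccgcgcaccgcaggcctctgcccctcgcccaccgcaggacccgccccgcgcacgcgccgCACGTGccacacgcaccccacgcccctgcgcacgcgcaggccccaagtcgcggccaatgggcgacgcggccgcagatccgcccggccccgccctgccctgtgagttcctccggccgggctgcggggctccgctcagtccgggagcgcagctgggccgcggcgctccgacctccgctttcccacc
PDK1: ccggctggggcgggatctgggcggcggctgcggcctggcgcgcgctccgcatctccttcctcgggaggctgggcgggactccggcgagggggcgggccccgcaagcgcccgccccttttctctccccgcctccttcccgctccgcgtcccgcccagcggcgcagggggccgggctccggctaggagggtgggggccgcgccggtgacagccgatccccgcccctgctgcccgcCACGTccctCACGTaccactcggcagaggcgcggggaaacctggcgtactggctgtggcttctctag
P4HA1: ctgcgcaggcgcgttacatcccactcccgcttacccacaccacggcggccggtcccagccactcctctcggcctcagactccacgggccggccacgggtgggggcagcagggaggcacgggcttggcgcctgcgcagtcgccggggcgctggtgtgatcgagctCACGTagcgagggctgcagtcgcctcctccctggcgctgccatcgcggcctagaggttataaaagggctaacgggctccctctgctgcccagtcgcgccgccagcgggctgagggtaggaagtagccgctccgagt
LDHB: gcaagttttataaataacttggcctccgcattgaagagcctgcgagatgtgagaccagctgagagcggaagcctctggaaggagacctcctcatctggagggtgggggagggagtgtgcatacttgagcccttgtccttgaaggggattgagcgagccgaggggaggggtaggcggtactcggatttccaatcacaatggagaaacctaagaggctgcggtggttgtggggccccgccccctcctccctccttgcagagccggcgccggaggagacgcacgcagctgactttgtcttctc
These windows are at chr11:18394313-18394612 (plus strand) for LDHA, chr2:74834920-74835219 (plus strand) for HK2 and chr10:131981874-131982173 (minus strand) for BNIP3. Those of PDK1, P4HA1 and LDHB are at chr2:172555840-172556139 (plus strand), chr10:73096817-73097116 (minus strand) and chr12:21657793-21658092 (minus strand). They hold 5 matches in LDHA, 4 in HK2, 2 each in BNIP3 and PDK1, 1 in P4HA1 and 0 in LDHB. Of the members, 35 matched the RefSeq table and 21 of these (60%) had ACGTG in at least 1 window, against 24.9% of all 27305 symbols in the table. By window, the share was 25 of 63 (39.7%), against 21.4% of all 35116 windows. GCGTG was in 36.5% of all windows. Its share among member windows is not given here, so the member shares describe ACGTG alone. A match is a description of letters and not a bound site, and members with more windows had more chances of a match. BNIP3L, HILPDA, NDRG1, SLC16A1 and SLC2A3 had no entry.

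Among the glycolytic members of parental control cells, GAPDH, ENO1 and PKM, which act in the later steps of the pathway, had the highest levels per kilobase of gene length. In 5637 they stood at 984 ± 25.9, 647 ± 21.1 and 324 ± 7.73 CPM per kb. In OVCAR8 the levels per kb were 1610 ± 60.3, 698 ± 97.7 and 286 ± 18.2. The lactate dehydrogenase subunits LDHA and LDHB stood at 166 ± 2.96 and 201 ± 6.74 CPM per kb in 5637, and at 164 ± 6.75 and 244 ± 69.4 in OVCAR8. HIF1A was the highest hypoxia member, at 75.7 ± 2.67 CPM per kb in 5637 and 58.6 ± 20 in OVCAR8. EPAS1 set the lines apart, at 26.4 ± 0.771 CPM per kb in 5637 and 0.519 ± 0.123 in OVCAR8. Across lines such levels differ in many genes, and these are descriptions with no test.

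The effect of 24 h of neratinib on parental cells was examined first. In 5637 parental cells glycolytic mRNAs fell together. Of 20 tested glycolytic members, 16 were lower at an adjusted p under 0.05 and 1 was higher, while 23.5% of all 18307 genes tested were lower and 23.9% higher. The median log2 fold change of these members was -0.49, against 0.023 over all genes. Of 17 hypoxia members, 7 were lower and 3 higher, with a median of -0.23. In bulk RNA, fewer cells that express a gene and less RNA of it per cell cannot be told apart. The summed urothelial markers were at 7617 to 7922 CPM in parental control dishes and 8504 to 9239 CPM with drug, and their part in the results was not tested. LDHA, which encodes the M subunit of lactate dehydrogenase (ENSG00000134333.9, hg19 chromosome 11, 18415935 to 18429972), stood at 1048, 1040 and 1013 CPM in the control dishes and 434, 429.7 and 439 CPM with drug (log2 fold change -1.36, SE 0.056, adjusted p = 5.8e-11). The drug-treated dishes lay far below every control dish. HK2, the inducible hexokinase (ENSG00000159399.5, hg19 chromosome 2, 75061108 to 75120486), went from 47.6, 47.3 and 45.2 CPM to 21.1, 19.7 and 21.1 CPM (log2 fold change -1.28, SE 0.059, adjusted p = 1.7e-10). The constitutive hexokinase HK1 moved less, from 89.3, 86.1 and 84.1 CPM to 79.5, 78 and 76.1 CPM (log2 fold change -0.26, SE 0.053, adjusted p = 0.00084). The groups of HK2 and those of HK1 did not overlap.

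Enzymes of the later steps fell in the same 5637 cells. PKM, pyruvate kinase, went from 2837, 2778 and 2705 CPM to 1335, 1398 and 1290 CPM (log2 fold change -1.16, SE 0.064, adjusted p = 1.2e-09). ENO1, the main enolase, went from 2636, 2576 and 2471 CPM to 1331, 1345 and 1259 CPM (log2 fold change -1.07, SE 0.057, adjusted p = 8.3e-10). PGAM1, phosphoglycerate mutase, went from 109, 100.2 and 102 CPM to 53.9, 52.9 and 54.3 CPM (log2 fold change -1.06, SE 0.07, adjusted p = 8.5e-09). No drug-treated dish reached a control dish in any of the 3. GAPDH, often used as a loading reference, fell by less, from 2982, 2958 and 2838 CPM to 2418, 2448 and 2353 CPM (log2 fold change -0.39, SE 0.062, adjusted p = 9e-05). LDHB, the H subunit of lactate dehydrogenase, went from 606, 615 and 576 CPM to 381, 372 and 383 CPM (log2 fold change -0.77, SE 0.063, adjusted p = 1e-07). The log2 fold changes of the other falling enzymes were -0.56 for GPI, -0.51 for ALDOA, -0.36 for PFKL, -0.35 for PFKM and -0.26 for PFKP. The lactate carriers SLC16A1 and SLC16A3 changed by -0.47 and -0.50. PFKP lost its call when libraries were scaled by total counts alone (adjusted p = 0.068). SLC2A3, a neuronal-type glucose carrier, was at 0 counts in all 3 drug-treated dishes and at 0.174, 0.123 and 0.306 CPM in the controls. Against 3 counts over the treated group, the control level was at least 8.11-fold higher.

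The main glucose carrier did not follow the enzymes. SLC2A1 (GLUT1) stood at 264, 254 and 252 CPM in 5637 controls and 263, 268 and 257 CPM with drug, and the groups overlapped (log2 fold change -0.073, SE 0.074, adjusted p = 0.44; with scaling by total counts alone the log2 fold change was 0.034). The single glycolytic gene that rose was PFKFB3, whose product makes the phosphofructokinase activator fructose 2,6-bisphosphate. It went from 88, 80.5 and 81.5 CPM to 122, 119.8 and 120.4 CPM (log2 fold change 0.43, SE 0.061, adjusted p = 3.2e-05). Its relative PFKFB4 had no call (log2 fold change -0.10, adjusted p = 0.4). ALDOC stayed at a few CPM with no call (log2 fold change 0.45, adjusted p = 0.055). When control replicate 3 or neratinib replicate 3 was omitted, 2 glycolytic members were called higher in place of 1.

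Hypoxia members split in the same 5637 comparison. NDRG1, a stress-induced gene linked to differentiation, rose from 44.8, 42.8 and 41.8 CPM to 134, 134 and 128 CPM (log2 fold change 1.51, SE 0.063, adjusted p = 6.3e-11). All treated dishes lay above all control dishes. P4HA2 and KDM3A, which encode a collagen prolyl hydroxylase and a histone demethylase, rose by 0.22 and 0.21 on the log2 scale. HIF1A itself fell from 383, 405 and 380.5 CPM to 261, 253 and 278 CPM (log2 fold change -0.67, SE 0.054, adjusted p = 8.2e-08). The kinases PDK1 and PDK3, which switch off pyruvate dehydrogenase, fell by 0.72 and 0.91 on the log2 scale. CA12, a cell-surface carbonic anhydrase, went from 3.93, 4.19 and 3.34 CPM to 1.19, 0.523 and 0.911 CPM (log2 fold change -2.24, SE 0.20, adjusted p = 2.6e-07). The related CA9 went from 1.15, 1.31 and 1.41 CPM to 0.297, 0.0997 and 0.14 CPM (log2 fold change -2.96, SE 0.35, adjusted p = 5.7e-06). CA9, a widely used hypoxia marker, was thus low in every 5637 dish. ANKRD37 was called lower at under 1 CPM (log2 fold change -0.92), and its adjusted p was 0.051 without parental control replicate 2. BNIP3, a mitophagy receptor, was called lower by 0.23 on the log2 scale, a call that was gone on leaving out either of control replicates 1 and 2 or either of neratinib replicates 1 and 3 (adjusted p up to 0.19 over the alternatives). EGLN1, EGLN3, P4HA1, BNIP3L, ANGPTL4, HILPDA and EPAS1 had no call, and EPAS1 lay at the threshold (log2 fold change 0.15, adjusted p = 0.05).

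**Figure D1:**
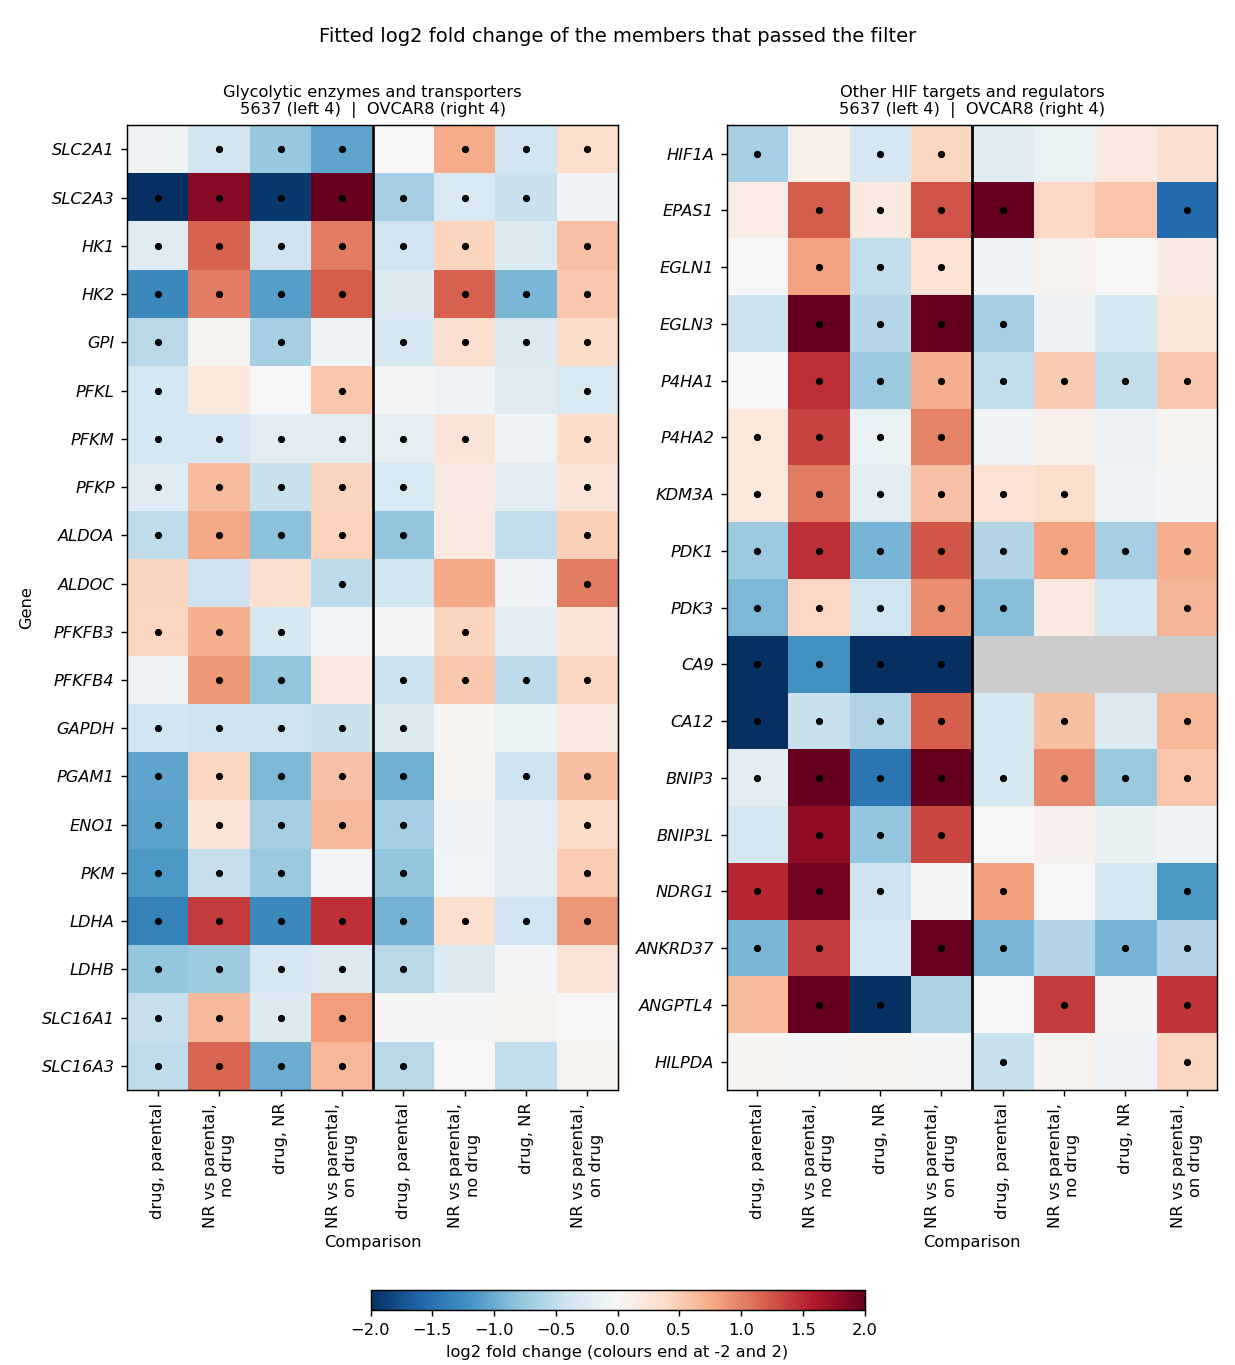
Fitted log2 fold changes (colour, ending at -2 and 2) of the 20 glycolytic (left) and 17 other members (right) that passed the filter, in 4 comparisons of each line; a black point marks an adjusted p under 0.05 and grey a gene not tested. In the columns for drug in parental cells 16 of 20 glycolytic members of 5637 and 14 of 20 of OVCAR8 are called lower, and the dark SLC2A3 cells of 5637 rest on a group at 0 counts or on levels under 1 CPM.

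OVCAR8 parental cells showed the same direction in most enzymes. Of 20 glycolytic members, 14 were lower and 0 higher with neratinib, against 16.3% and 16.2% of all 18072 genes tested. With the library that stood apart left out, 16 were lower and 0 higher, with 24.9% and 24.3% of 18537 genes. Of 16 hypoxia members, 7 were lower and 3 higher (10 and 3 without that library). The summed ovarian markers were at 1526 to 2101 CPM in the controls and 2439 to 2598 CPM with drug, and their part was not tested. LDHA went from 981, 1064 and 1012 CPM to 584, 549 and 568 CPM (log2 fold change -0.95, SE 0.08, adjusted p = 7.7e-06). PGAM1 went from 236, 255 and 220.4 CPM to 135, 132 and 127 CPM (log2 fold change -0.96, SE 0.086, adjusted p = 1.2e-05). PKM went from 2385, 2633 and 2346 CPM to 1543, 1542 and 1517 CPM (log2 fold change -0.78, SE 0.085, adjusted p = 4.5e-05). In all 3 genes the treated dishes lay below every control dish. ALDOA and ENO1, both highest in replicate 2 of the controls, fell by 0.78 and 0.67 on the log2 scale with that library, and changed by -0.60 (adjusted p = 5.9e-11) and -0.49 (adjusted p = 7.2e-11) without it. GAPDH was called lower (log2 fold change -0.28), a call lost without parental neratinib replicate 2 or 3 (adjusted p up to 0.13).

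Individual OVCAR8 genes depended on the library that stood apart. LDHB was at 584, 964 and 631 CPM in the controls, where replicate 2 was highest, and 521, 531 and 555 CPM with drug. Its log2 fold change was -0.56 (adjusted p = 0.03) with that library and -0.23 (adjusted p = 8.3e-05) without it, and the call was lost on leaving out any of the parental neratinib dishes. HK2 stood at 18.4, 10.7 and 16.4 CPM and 14.7, 12.4 and 12.7 CPM, with no call when all libraries were used (log2 fold change -0.29, SE 0.13, adjusted p = 0.13). Without replicate 2 its change was -0.45 (adjusted p = 3.9e-05). HIF1A stood at 367, 183 and 356 CPM in the controls and 270.4, 259.6 and 280.3 CPM with drug (log2 fold change -0.24, SE 0.17, adjusted p = 0.3), and changed by -0.47 (adjusted p = 2.8e-09) without replicate 2, which was its lowest library. SLC2A1 was at 45.6, 40.2 and 49.2 CPM and 52, 45 and 47 CPM with no call (log2 fold change -0.0037, adjusted p = 0.98; with scaling by total counts alone the log2 fold change was 0.091). SLC2A3, expressed in this line, went from 21, 22.3 and 24.1 CPM to 15.8, 14.9 and 14.8 CPM (log2 fold change -0.67, SE 0.082, adjusted p = 0.0001).

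The strongest rise among the members in OVCAR8 parental cells was EPAS1, the HIF-2 alpha gene (ENSG00000116016.9, hg19 chromosome 2, 46520806 to 46613836), from 3.89, 2.84 and 4.63 CPM to 23.2, 23.9 and 24.3 CPM (log2 fold change 2.56, SE 0.16, adjusted p = 1e-06). Each treated dish exceeded each control dish. NDRG1 rose from 82.3, 96.2 and 89.2 CPM to 184, 171 and 153 CPM (log2 fold change 0.82, SE 0.10, adjusted p = 0.0001). KDM3A rose by 0.29, a call lost on leaving out any parental neratinib dish (adjusted p up to 0.14). Among the falling hypoxia genes, PDK1 and PDK3 changed by -0.59 and -0.85, P4HA1 by -0.49, EGLN3 by -0.68 and ANKRD37 by -0.92. HILPDA, a lipid droplet protein gene, changed by -0.44, a call lost without parental neratinib replicate 1 or 2. BNIP3 changed by -0.35 (adjusted p = 0.037), a call lost on leaving out any parental neratinib dish, and by -0.18 (adjusted p = 0.007) without parental control replicate 2.

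The lines share no library, so their calls can be set against each other. Among genes tested in both, 13 of 20 glycolytic members were lower with neratinib in both parental lines, which is 81.2% of the 16 called in 5637 and 92.9% of the 14 called in OVCAR8, against 11.7% of all 16246 genes. They were SLC2A3, HK1, GPI, PFKM, PFKP, ALDOA, GAPDH, PGAM1, ENO1, PKM, LDHA, LDHB and SLC16A3. Of 16 hypoxia members, 4 were lower in both (PDK1, PDK3, BNIP3 and ANKRD37) and 2 were higher in both (NDRG1 and KDM3A), against 11.7% and 10.4% of all genes. No member was called in opposite directions. The difference between the lines was tested with all 24 libraries. It passed the threshold for 12 of 37 members, with 7 higher and 5 lower in OVCAR8 relative to 5637, against 5.46% and 4.83% of all 20250 genes. The largest among genes at 5 CPM or more in a group of each line were EPAS1 (log2 difference 2.39, SE 0.16, adjusted p = 4.1e-10), HK2 (log2 difference 0.99, SE 0.15, adjusted p = 8e-05) and NDRG1 (log2 difference -0.70, SE 0.12, adjusted p = 0.00041). For LDHA the fall was smaller in OVCAR8 (log2 difference 0.40, SE 0.10, adjusted p = 0.011). HILPDA passed as well, but lost its call without a filter and on leaving out any 1 of 6 libraries (adjusted p up to 0.12), and P4HA1 had an adjusted p of 0.056 without 5637 parental control replicate 3. Without parental control replicate 2 the number of glycolytic members higher by this difference was 9 in place of 5, and PFKFB3, the glycolytic member lower by it, lost its call without 5637 parental control replicate 2 or 3. The number of hypoxia members lower by it, 4 with all libraries, was as low as 1 when 1 library was left out, and it moved by over 1.5-fold without any 1 of the 3 parental control dishes or parental neratinib replicate 1 of 5637, or without parental neratinib replicate 2 of OVCAR8.

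Resistant cells were next compared with parental cells, both without drug. In 5637 both gene classes were mostly higher in NR cells. Of 20 glycolytic members 12 were higher and 5 lower, and of 17 hypoxia members 13 were higher and 2 lower, against 28.4% and 28% of all genes. The medians were 0.53 and 1.35 on the log2 scale, against 0.00047 over all genes. BNIP3 (ENSG00000176171.7, hg19 chromosome 10, 133781578 to 133795435) went from 8.44, 8.83 and 7.77 CPM in parental to 80.2, 83.3 and 81.4 CPM in NR cells (log2 fold change 3.27, SE 0.074, adjusted p = 1.6e-14). Its relative BNIP3L, also a mitophagy receptor, went from 31.4, 33.4 and 30.7 CPM to 115, 126 and 88.9 CPM (log2 fold change 1.77, SE 0.14, adjusted p = 3.2e-08). NDRG1 went from 44.8, 42.8 and 41.8 CPM to 159.6, 166 and 166 CPM (log2 fold change 1.91, SE 0.064, adjusted p = 1.1e-12). The NR dishes of all 3 genes lay above every parental dish. EGLN3, an oxygen-sensing hydroxylase and itself a HIF target, went from 1.37, 2.44 and 2.26 CPM to 11.6, 12.3 and 9.96 CPM (log2 fold change 2.46, SE 0.16, adjusted p = 4.1e-09). PDK1 rose from 17.6, 17.8 and 16.5 CPM to 51.2, 51 and 42.3 CPM (log2 fold change 1.46, SE 0.084, adjusted p = 6.3e-10).

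Further hypoxia members rose in 5637 NR cells, namely P4HA1, which makes collagen hydroxylase, by 1.47, P4HA2 by 1.35, KDM3A by 1.04, EGLN1 by 0.80, PDK3 by 0.41 and ANKRD37 by 1.40 on the log2 scale. ANGPTL4, a secreted lipase inhibitor, was called higher (3.72) but stood at 1.91, 2.09 and 2.27 CPM in NR dishes. EPAS1 rose from 193, 198 and 186 CPM to 444, 436 and 476 CPM (log2 fold change 1.22, SE 0.06, adjusted p = 1.1e-10), whereas HIF1A, at 383, 405 and 380.5 CPM and 421, 429 and 419 CPM, had no call (log2 fold change 0.10, adjusted p = 0.11). HILPDA stood at 25.9, 28 and 27.1 CPM and 26.3, 27 and 27.2 CPM with no call (adjusted p = 0.76). The carbonic anhydrases went the other way. CA9 was at 0.53, 0.775 and 0.392 CPM in NR dishes and was called lower (-1.21). CA12 was called lower by 0.45 on the log2 scale, a call that needed parental control replicates 1 and 2 and every NR control dish (adjusted p up to 0.12).

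Among the glycolytic members of 5637, LDHA rose from 1048, 1040 and 1013 CPM to 2702, 2946 and 2618 CPM in NR cells (log2 fold change 1.40, SE 0.056, adjusted p = 9.2e-12). LDHB, its partner subunit, went down from 606, 615 and 576 CPM to 352, 396 and 356 CPM (log2 fold change -0.72, SE 0.063, adjusted p = 9.7e-08). The groups did not overlap in either gene. HK1 went from 89.3, 86.1 and 84.1 CPM to 191, 209 and 194 CPM (log2 fold change 1.18, SE 0.053, adjusted p = 3.5e-11), and HK2 from 47.6, 47.3 and 45.2 CPM to 98.8, 98.2 and 91.6 CPM (log2 fold change 1.03, SE 0.057, adjusted p = 4.2e-10). SLC16A3, the lactate exporter MCT4, went from 184, 169.9 and 179.8 CPM to 376, 419.7 and 416 CPM (log2 fold change 1.17, SE 0.10, adjusted p = 5.8e-08). Smaller rises were found for PFKFB4 (0.87), ALDOA (0.78), PFKFB3 (0.71), SLC16A1 (0.66), PFKP (0.63), PGAM1 (0.43) and ENO1 (0.26) on the log2 scale. SLC2A3 was also called higher, at 0.742, 0.947 and 0.514 CPM in NR dishes. The other members that were lower in NR cells were SLC2A1, from 264, 254 and 252 CPM to 196, 192 and 214 CPM (log2 fold change -0.37, SE 0.074, adjusted p = 0.00049), PKM (-0.46), GAPDH (-0.42) and PFKM (-0.34). GPI, PFKL and ALDOC had no call. The summed level of the 13 urothelial markers found in the table was 7617 to 7922 CPM in parental and 2306 to 2483 CPM in NR control dishes, and the part of this change in the results above was not tested. Its most abundant genes were KRT5, at 535.6 to 4384 CPM over the 12 libraries of 5637, and KRT7, at 1455 to 3542 CPM.

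OVCAR8 NR cells differed from their parental cells in fewer members. Of 20 glycolytic members 8 were higher and 1 lower, and of 16 hypoxia members 6 were higher and 0 lower, against 4.94% and 4.91% of all genes. Omitting the library that stood apart gave 14 higher and 2 lower, and 7 higher and 1 lower, with 11.4% of all genes in each direction. The 8 glycolytic calls fell to 5 on leaving out NR control replicate 1 or 2, omissions for which the share of all genes is not given. HK2 rose from 18.4, 10.7 and 16.4 CPM to 34.1, 34.7 and 36.4 CPM (log2 fold change 1.17, SE 0.13, adjusted p = 0.00016). BNIP3 rose from 51.5, 65 and 50.8 CPM to 112, 112 and 112 CPM (log2 fold change 0.95, SE 0.12, adjusted p = 0.00031). The NR dishes lay above every parental dish in both genes. PDK1 went from 11.1, 8.06 and 11.2 CPM to 16.5, 18.3 and 19.8 CPM (log2 fold change 0.81, SE 0.14, adjusted p = 0.0027), and P4HA1 from 66.3, 62.2 and 69.1 CPM to 95.6, 96.4 and 102 CPM (log2 fold change 0.53, SE 0.066, adjusted p = 0.00034). SLC2A1 went up in this line, from 45.6, 40.2 and 49.2 CPM to 79.7, 78.8 and 74 CPM (log2 fold change 0.74, SE 0.079, adjusted p = 9e-05). ANGPTL4 went from 2.21, 2.46 and 1.54 CPM to 6.32, 4.7 and 5.85 CPM (log2 fold change 1.41, SE 0.19, adjusted p = 0.00055). The rises of HK1, PFKFB4 and GPI were 0.45, 0.53 and 0.34. LDHA rose from 981, 1064 and 1012 CPM to 1279, 1317 and 1360 CPM (log2 fold change 0.32, SE 0.079, adjusted p = 0.023), a call that needed parental control replicate 3 and every NR control dish (adjusted p up to 0.25). PFKFB3 (0.44), KDM3A (0.35), PFKM (0.26), CA12 (0.60) and the falling SLC2A3 (-0.30) each lost their call without NR control replicate 2, among other dishes. GAPDH, LDHB and HIF1A had no call (adjusted p = 0.76, 0.32 and 0.64), and without parental control replicate 2 they changed by 0.12 (adjusted p = 0.0098), 0.047 (adjusted p = 0.5) and -0.36 (adjusted p = 7.3e-07). EPAS1 stood at 5.69, 5.16 and 4.79 CPM in NR dishes with no call (log2 fold change 0.42, adjusted p = 0.13). The 9 ovarian markers found in the table summed to 1526 to 2101 CPM in parental control and 718.7 to 792.7 CPM in NR control dishes, and their part in these results was not tested. The most abundant of them were KRT7, a gene of both marker lists, at 421 to 2078 CPM over the OVCAR8 libraries, and MSLN, at 197.3 to 405.8 CPM.

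In both lines 5 of 20 glycolytic members were higher in NR cells (HK1, HK2, PFKFB3, PFKFB4 and LDHA), which is 41.7% of the 12 called in 5637 and 62.5% of the 8 in OVCAR8. Of 16 hypoxia members 5 were higher in both (KDM3A, P4HA1, PDK1, ANGPTL4 and BNIP3), or 38.5% of 13 and 83.3% of 6. The share of all genes was 2.41%. SLC2A1, SLC2A3, PFKM and CA12 were called in opposite directions. The size of the change differed between the lines for 29 of 37 members, 7 toward OVCAR8 and 22 toward 5637, against 14.8% and 18.1% of all genes. The hypoxia members made up 13 of these, with 12 toward 5637. EGLN3 (log2 difference -2.59, SE 0.23, adjusted p = 7.2e-09), BNIP3 (log2 difference -2.34, SE 0.14, adjusted p = 6.8e-12), ANGPTL4 (log2 difference -2.34, SE 0.44, adjusted p = 0.00022) and LDHA (log2 difference -1.09, SE 0.10, adjusted p = 9e-09) rose more in 5637. NDRG1, called higher in 5637, had a change of -0.002 in OVCAR8 (log2 difference -1.93, SE 0.12, adjusted p = 1.8e-11). SLC2A1 differed toward OVCAR8 (log2 difference 1.09, SE 0.12, adjusted p = 1e-07), as did PFKM (log2 difference 0.58, SE 0.08, adjusted p = 4.2e-06) and GAPDH (log2 difference 0.44, SE 0.10, adjusted p = 0.0017). Beyond these, HK1 (log2 difference -0.75, SE 0.086, adjusted p = 3.1e-07) and EPAS1 (log2 difference -0.82, SE 0.17, adjusted p = 0.00055) rose more in 5637.

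**Figure D2:**
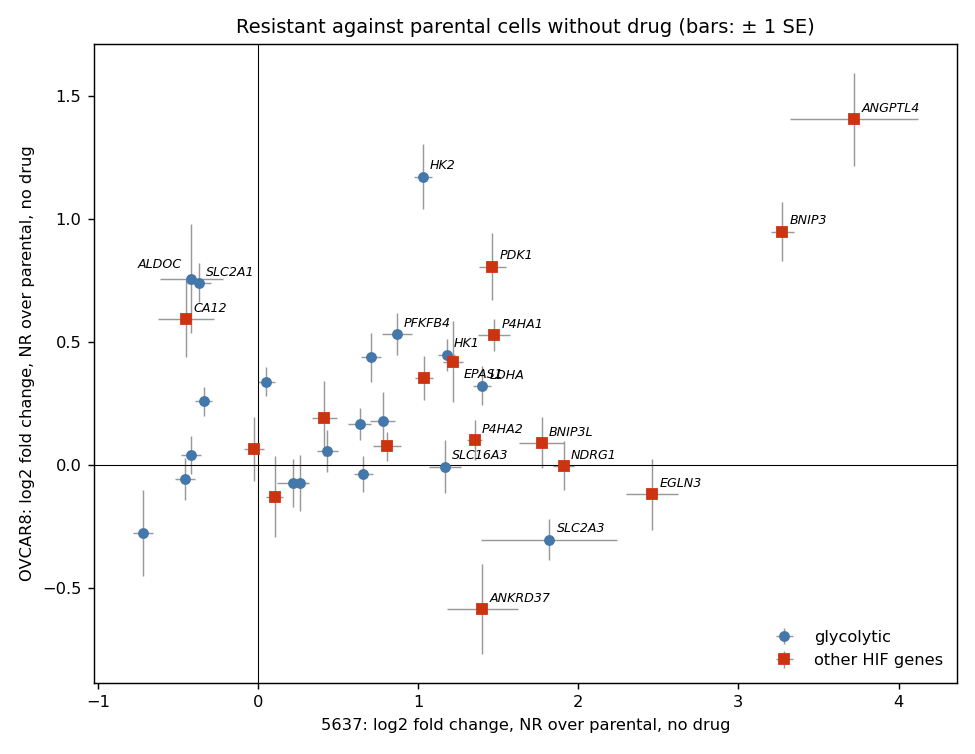
Each point is 1 of the 36 members tested in both lines, placed by its fitted log2 fold change of NR over parental cells without drug in 5637 (horizontal) and OVCAR8 (vertical), with bars of 1 SE. BNIP3, PDK1 and HK2 lie right of and above 0, EGLN3 and NDRG1 are far right and near 0 in OVCAR8, and SLC2A1 lies left of and above 0.

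Neratinib was then given to resistant cells. In 5637 NR cells 18 of 20 glycolytic members were lower and 0 higher at an adjusted p under 0.05, and 19 had a fitted value below 0 beside ALDOC above it. Of 17 hypoxia members 14 were lower and 1 higher. Of all genes 21.1% were lower and 18.4% higher. The summed urothelial markers were at 2306 to 2483 CPM without and 3299 to 3838 CPM with drug, and their part was not tested. LDHA went from 2702, 2946 and 2618 CPM to 1139, 1325 and 1226 CPM (log2 fold change -1.29, SE 0.056, adjusted p = 1.2e-10). HK2 went from 98.8, 98.2 and 91.6 CPM to 46, 50.2 and 50.8 CPM (log2 fold change -1.10, SE 0.057, adjusted p = 7.2e-10). With drug, NR cells held HK2 close to the level of untreated parental cells (45.2 to 47.6 CPM), a pairing of groups that was not tested. SLC16A3 fell from 376, 419.7 and 416 CPM to 243, 182 and 236 CPM (log2 fold change -1.0, adjusted p = 9.9e-07). The carrier SLC2A1, with no call in parental cells, fell in NR cells from 196, 192 and 214 CPM to 143, 117 and 127 CPM (log2 fold change -0.76, SE 0.075, adjusted p = 1e-06). Other falls on the log2 scale were -0.90 for PGAM1, -0.82 for ALDOA, -0.78 for PFKFB4, -0.75 for PKM, -0.68 for ENO1 and -0.67 for GPI. GAPDH and HK1 changed by -0.42 and -0.41, LDHB by -0.33 and PFKFB3 by -0.32. PFKL and ALDOC had no call (adjusted p = 0.92 and 0.19), and 1 glycolytic member was called higher without NR control replicate 3.

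Among hypoxia genes at 5 CPM or more, BNIP3 fell most in 5637 NR cells, from 80.2, 83.3 and 81.4 CPM to 32.8, 33.6 and 30.8 CPM (log2 fold change -1.46, SE 0.067, adjusted p = 2.1e-10). Even so, each NR dish with drug stood above each parental dish. PDK1 went from 51.2, 51 and 42.3 CPM to 24.4, 28.4 and 29.6 CPM (log2 fold change -0.94, SE 0.082, adjusted p = 2.8e-07), and P4HA1 from 65.3, 68.6 and 57.7 CPM to 34.6, 44.2 and 46.5 CPM (log2 fold change -0.74, SE 0.10, adjusted p = 1.9e-05). BNIP3L changed by -0.77, EGLN3 by -0.57, EGLN1 by -0.50, NDRG1 by -0.42 and HIF1A by -0.35. ANGPTL4 and CA9 fell to under 0.2 CPM. EPAS1 was the single hypoxia member called higher (log2 fold change 0.19, SE 0.059, adjusted p = 0.017), a call lost without NR control replicate 1 or 2 or NR neratinib replicate 1 (adjusted p up to 0.076). The call of P4HA2 (-0.14) was lost under 4 of the 6 such omissions, without NR control replicate 1 or 2 or NR neratinib replicate 2 or 3, and that of CA12 (-0.60) without NR neratinib replicate 3.

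Fewer members passed the threshold in OVCAR8 NR cells given neratinib. Of 20 glycolytic members 7 were lower and 0 higher, and of 16 hypoxia members 4 were lower and 0 higher, while 0.747% of all genes were lower and 0.642% higher. Leaving out parental control replicate 2, which is in neither group compared, gave 16 lower and 0 higher glycolytic members, and 6 lower and 2 higher hypoxia members, with 11.9% and 9.39% of all genes. This omission was chosen after the data were seen. Leaving out any 1 of the 6 NR dishes instead gave 1 or 2 glycolytic and 0 to 2 hypoxia members lower. The shares of all genes under these omissions are not given, so these counts cannot be set against a background. The summed ovarian markers were at 718.7 to 792.7 CPM without and 919.8 to 1057 CPM with drug, and their part was not tested. HK2 went from 34.1, 34.7 and 36.4 CPM to 19.4, 19 and 18.2 CPM (log2 fold change -0.91, SE 0.13, adjusted p = 0.0073), and was called under all alternatives. P4HA1 went from 95.6, 96.4 and 102 CPM to 70.4, 75.1 and 68.4 CPM (log2 fold change -0.48, SE 0.066, adjusted p = 0.0064), with an adjusted p of 0.051 without NR neratinib replicate 1. BNIP3 went from 112, 112 and 112 CPM to 68.4, 68.4 and 66.2 CPM (log2 fold change -0.74, SE 0.12, adjusted p = 0.0096), with an adjusted p of up to 0.066 on leaving out a single NR dish. Treated dishes lay below all control dishes in these 3 genes. LDHA went from 1279, 1317 and 1360 CPM to 1001, 1044 and 999 CPM (log2 fold change -0.40, SE 0.079, adjusted p = 0.034), and SLC2A1 from 79.7, 78.8 and 74 CPM to 58.2, 57.4 and 63.4 CPM (log2 fold change -0.39, SE 0.079, adjusted p = 0.034). PFKFB4, SLC2A3, PGAM1 and GPI changed by -0.53, -0.45, -0.41 and -0.29, and PDK1 and ANKRD37 by -0.67 and -0.92. Except for PFKFB4, called without NR control replicate 1, and ANKRD37, called without NR neratinib replicate 3, these 8 genes lost their call on leaving out any single NR dish. LDHB stood at 633, 601 and 648 CPM and 627, 623 and 624 CPM with no call (adjusted p = 0.98). Members lower with drug in NR cells of both lines were SLC2A1, SLC2A3, HK2, GPI, PFKFB4, PGAM1, LDHA, P4HA1, PDK1 and BNIP3, or 10 of 36, against 0.474% of all genes. Both of these values include parental control replicate 2, on which the OVCAR8 counts depended as given above.

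With drug present in both states, 11 of 20 glycolytic members were higher and 5 lower in NR than in parental cells of 5637, and 13 of 17 hypoxia members were higher and 1 lower, against 28.8% and 29.2% of all genes. This comparison and the preceding ones share groups, so their values are only set side by side. LDHA stood at 434, 429.7 and 439 CPM in treated parental and 1139, 1325 and 1226 CPM in treated NR dishes (log2 fold change 1.47, SE 0.057, adjusted p = 6.6e-12). The difference of BNIP3 was 2.04, of HK2 1.21, of EPAS1 1.26, of PDK1 1.25 and of CA12 1.19 on the log2 scale. EGLN3, at a few CPM, differed by 2.33. SLC2A1 was lower in treated NR dishes, with 143, 117 and 127 CPM against 263, 268 and 257 CPM (log2 fold change -1.06, SE 0.075, adjusted p = 8.4e-09). NDRG1 and ANGPTL4 had no call on drug (log2 fold changes -0.02 and -0.64). HIF1A was higher (0.43), and GAPDH, PFKM and LDHB were lower (-0.45, -0.23 and -0.28). CA9 was the hypoxia member called lower, at 0.0231 to 0.297 CPM over both groups, a call lost without parental neratinib replicate 1 or NR neratinib replicate 1 (adjusted p = 0.081 at most), while 2 hypoxia members were lower without parental neratinib replicate 3. The call of ALDOC (lower) was also lost on leaving out single dishes.

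In OVCAR8 on drug, 13 of 20 glycolytic members were higher in NR cells and 1 lower, and 7 of 16 hypoxia members were higher and 3 lower, against 14.6% and 16.4% of all genes. When parental control replicate 2 was omitted they were 16 and 1, and 9 and 3, with 26.8% and 28.7%. LDHA stood at 584, 549 and 568 CPM in parental and 1001, 1044 and 999 CPM in NR dishes (log2 fold change 0.88, SE 0.08, adjusted p = 1.1e-05). PGAM1 differed by 0.60, HK1 by 0.58, HK2 by 0.55, PKM by 0.50 and SLC2A1 by 0.35 on the log2 scale. Of the hypoxia genes, PDK1 differed by 0.72, PDK3 by 0.68, CA12 by 0.67, BNIP3 by 0.56, P4HA1 by 0.54 and ANGPTL4 by 1.44. EPAS1 was lower in treated NR dishes, with 9.37, 6.32 and 7.91 CPM against 23.2, 23.9 and 24.3 CPM (log2 fold change -1.56, SE 0.15, adjusted p = 1.6e-05). NDRG1 was lower too, with 77, 71.8 and 73.9 CPM against 184, 171 and 153 CPM (log2 fold change -1.15, SE 0.10, adjusted p = 8e-06). In both genes the groups lay clearly apart. PFKL was the glycolytic member called lower (-0.31), a call lost without parental neratinib replicate 1 or 2 or NR neratinib replicate 2 or 3, and ENO1 (0.37) lost its call on leaving out any dish compared. Members higher in NR cells on drug in both lines were PFKP, ENO1, LDHA, ALDOA, HK1, HK2, PGAM1, PDK3, CA12, P4HA1, PDK1 and BNIP3, or 12 of 36, against 8.03% of all genes. ALDOC, SLC2A1, PFKL, PFKM, EPAS1 and ANKRD37 were called in opposite directions.

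Whether neratinib acted differently in resistant and parental cells was tested as an interaction, the drug effect in NR minus that in parental cells. In 5637 it passed the threshold for 7 of 20 glycolytic members, 3 higher and 4 lower, and for 10 of 17 hypoxia members, 3 higher and 7 lower, against 7.39% and 6.48% of all genes. NDRG1 had the lowest value among members above 5 CPM (log2 difference -1.93, SE 0.088, adjusted p = 2.1e-09), rising with drug in parental cells and falling in NR cells. BNIP3 followed (log2 difference -1.23, SE 0.10, adjusted p = 1.1e-06). PFKFB3 also moved in opposite directions, up in parental and down in NR cells (log2 difference -0.75, SE 0.086, adjusted p = 2.5e-05). SLC2A1, with no call in parental cells, passed as well (log2 difference -0.69, SE 0.10, adjusted p = 0.00035). P4HA1 (log2 difference -0.75, SE 0.14, adjusted p = 0.0018), PFKFB4 (log2 difference -0.68, SE 0.13, adjusted p = 0.0025), EGLN1 and KDM3A were also more negative in NR cells, as were P4HA2 and the low ANGPTL4. With 5637 NR neratinib replicate 1 left out, the number of glycolytic members higher by this difference was 5 in place of 3. The opposite sign, a smaller fall in NR cells, was found for the low CA12, for PDK3 (log2 difference 0.51, SE 0.11, adjusted p = 0.006), LDHB (log2 difference 0.44, SE 0.089, adjusted p = 0.0037), PKM (log2 difference 0.41, SE 0.089, adjusted p = 0.0058), ENO1 (log2 difference 0.39, SE 0.08, adjusted p = 0.0039) and HIF1A (log2 difference 0.32, SE 0.076, adjusted p = 0.0096). For LDHA (log2 difference 0.067, SE 0.078, adjusted p = 0.65), HK2 (log2 difference 0.19, SE 0.081, adjusted p = 0.16) and GAPDH (log2 difference -0.032, SE 0.087, adjusted p = 0.87) no difference between the states was detected. SLC16A3 passed (log2 difference -0.50, SE 0.14, adjusted p = 0.024) but lost its call without any of 6 single libraries (adjusted p up to 0.07).

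In OVCAR8 the interaction passed for 3 glycolytic members, all higher, and for 2 hypoxia members, both lower, against 4.62% and 4.21% of all genes. Omission of parental control replicate 2 gave 5 higher and 3 lower, and 1 higher and 4 lower, with 17% and 15.7%. PKM (log2 difference 0.56, SE 0.12, adjusted p = 0.015), LDHA (log2 difference 0.55, SE 0.11, adjusted p = 0.011) and PGAM1 (log2 difference 0.54, SE 0.12, adjusted p = 0.018) fell less in NR cells. PKM had an adjusted p of 0.051 without NR control replicate 1, and PGAM1 of up to 0.056 on leaving out 1 of 6 single libraries. EPAS1 (log2 difference -1.98, SE 0.22, adjusted p = 0.00052) and NDRG1 (log2 difference -1.15, SE 0.14, adjusted p = 0.00092) were the members lower. Without NR control replicate 1, only 1 glycolytic member was higher, and leaving out parental control replicate 1, 2 or 3 brought up to 3 lower in place of 0. HIF1A had no call with all libraries (log2 difference 0.43, SE 0.23, adjusted p = 0.29), and its difference was 0.65 (adjusted p = 9.5e-09) without replicate 2. BNIP3 likewise had no call (log2 difference -0.39, SE 0.17, adjusted p = 0.17), and was at -0.58 (adjusted p = 9.6e-07) without it.

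**Figure D3:**
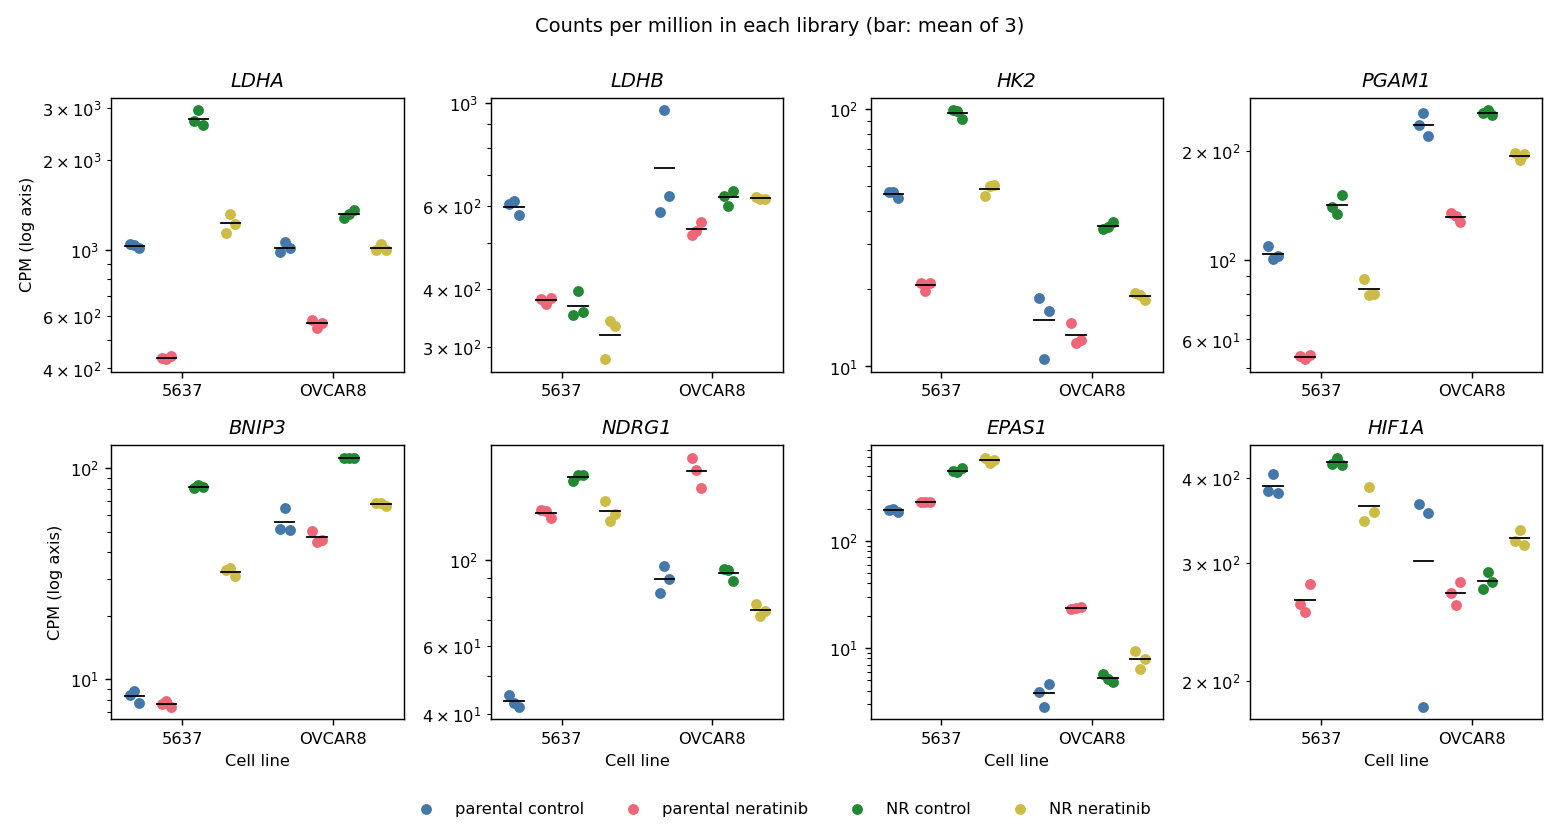
CPM of 8 members in each of the 24 libraries (points, log axis) with the mean of 3 libraries (bars), by line and group. LDHA is highest in NR control dishes of 5637, NDRG1 is high in treated parental dishes of both lines, EPAS1 reaches 23.2 to 24.3 CPM in OVCAR8 in the treated parental dishes, and the low HIF1A and high LDHB points belong to OVCAR8 parental control replicate 2.

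The summed counts give the size of these programmes in the RNA pool. The 23 glycolytic members held 1.24% ± 0.0294, 0.794% ± 0.0201, 1.42% ± 0.0404 and 0.941% ± 0.0363 of all counts (mean ± SD, n = 3) in 5637 parental control, parental neratinib, NR control and NR neratinib libraries. In OVCAR8 the same shares were 1.52% ± 0.0979, 1.15% ± 0.00964, 1.63% ± 0.00351 and 1.42% ± 0.0271. Treated libraries lay below untreated ones of the same line and state in each case. The sums lack PGK1 and TPI1 and are led by GAPDH, ENO1 and PKM, except in NR control libraries of 5637. There ENO1 (2976 to 3239 CPM) and LDHA (2618 to 2946 CPM) were highest, above GAPDH (2129 to 2342 CPM) and PKM (1972 to 2131 CPM). The 17 hypoxia members held 0.0878% ± 0.00226 in parental and 0.169% ± 0.0024 in NR control libraries of 5637. With drug they held 0.089% ± 0.00185 in parental and 0.1555% ± 0.00162 in NR libraries of that line. In OVCAR8 they held 0.0844%, 0.0636% and 0.0847% in the parental control libraries, the lowest being replicate 2, and 0.0894% ± 0.00117 in NR control libraries. With drug the OVCAR8 shares were 0.0833% ± 0.00231 in parental and 0.0832% ± 0.00137 in NR libraries. HIF1A and EPAS1 lead the hypoxia sums of 5637.

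Paralogues shifted against each other. Per kilobase, LDHB made up 54.6%, 55.2% and 54.2% of LDHA plus LDHB in 5637 parental controls and 21.3%, 21.9% and 22.1% in NR controls. With drug the shares were 64.6%, 64.3% and 64.5% in parental and 34.1%, 34.9% and 36.2% in NR dishes. So the LDHB share was higher with drug than without in both states and lower in NR than in parental cells. In OVCAR8 the shares were 55.4%, 65.4% and 56.5% in the parental control dishes, the highest being replicate 2. The mean shares there were 66.3% ± 1.11 in parental neratinib, 49.8% ± 1.01 in NR control and 56.2% ± 0.66 in NR neratinib dishes. HK1 made up 64.6% ± 0.38 of the 2 hexokinases in 5637 parental controls and 78.8% ± 0.806 with drug. In NR cells it made up 66.9% ± 1.23 and 76.6% ± 0.652. In OVCAR8 the HK1 share was 87.4% ± 0.248 to 92% ± 1.87 in its 4 groups. These shares are descriptions with no test.

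**Figure D4:**
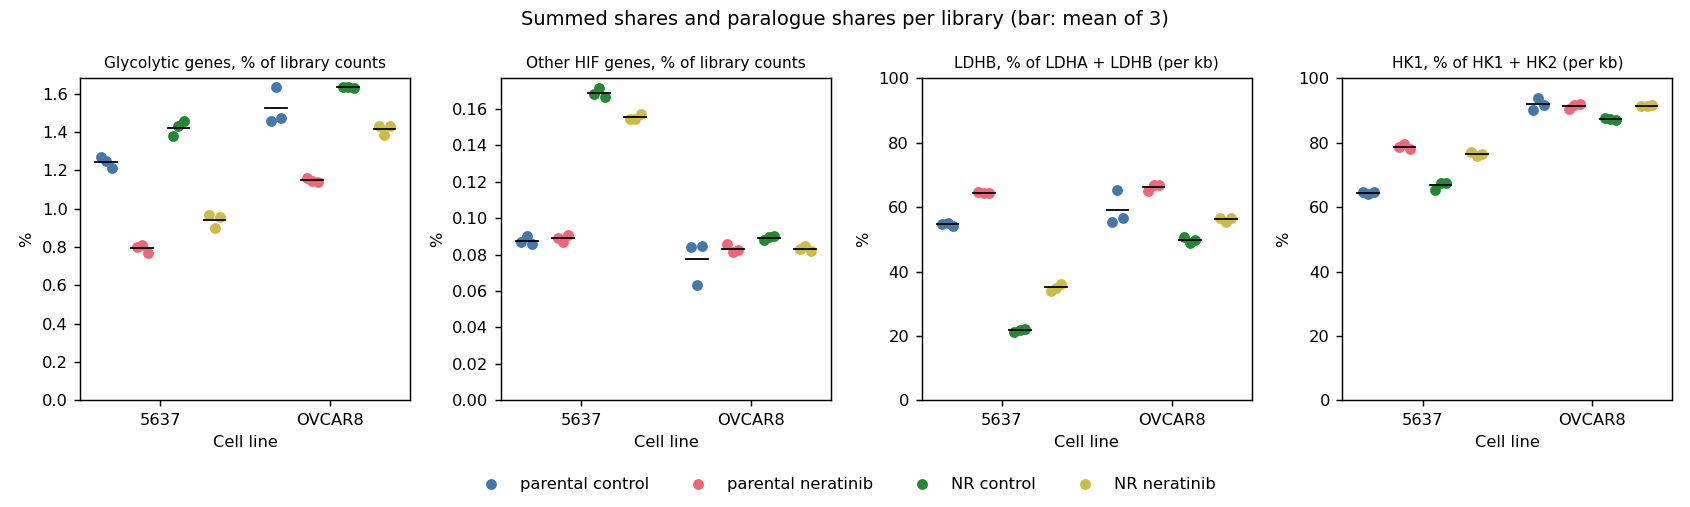
Shares per library (points) and their mean (bars) by line and group, as % of all counts for the 23 glycolytic and 17 other members, and as % of paralogue pairs per kb of gene length. The LDHB share is lowest in 5637 NR control dishes, at 21.3% to 22.1%, and the hypoxia members hold more of the counts in 5637 NR dishes than in parental ones.

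Wider lists of the same pathways moved in both directions. Of 36 further genes of glycolysis and pyruvate use found in the table, 28 were tested in 5637, and neratinib lowered 13 and raised 5 in parental cells. Of 43 further hypoxia genes, 42 were tested there, with 13 lower and 15 higher. Over all genes the shares were 23.5% lower and 23.9% higher. The stanniocalcin gene STC2 rose from 58.2 ± 2.81 to 256 ± 3.45 CPM (log2 2.03, adjusted p = 3.2e-13), and the heme oxygenase gene HMOX1 rose from 9.36 ± 0.641 to 41.2 ± 1.85 CPM (log2 2.03, adjusted p = 1.1e-09). In OVCAR8 parental cells 8 of 31 further glycolysis genes were lower and 5 higher, and 12 of 43 further hypoxia genes were lower and 11 higher, against 16.3% and 16.2% of all genes. There the mTORC1 inhibitor gene DDIT4 rose from 3.86 ± 1.41 to 48.3 ± 2.41 CPM (log2 3.54, adjusted p = 1.8e-06), VEGFA rose from 17.3 ± 0.474 to 67.8 ± 6.11 CPM (log2 1.87, adjusted p = 5.3e-08), and ADM, which encodes the vasodilator adrenomedullin, fell from 58.1 ± 9.33 to 14.2 ± 1.09 CPM (log2 -2.13, adjusted p = 9e-07). TIGAR, a phosphatase that opposes glycolysis, was lower with drug in parental cells of 5637 (log2 -0.79) and OVCAR8 (-0.90).

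In 5637 NR cells without drug, 26 of 42 further hypoxia genes were higher and 6 lower than in parental cells, against 28.4% and 28% of all genes. STC2 rose from 58.2 ± 2.81 to 524 ± 18.2 CPM (log2 3.15, adjusted p = 1.1e-15), and the collagen cross-linker LOXL2 from 97.6 ± 4.84 to 624 ± 35.8 CPM (log2 2.66, adjusted p = 5.2e-13). BSG, the chaperone of the lactate carriers, was lower, going from 979 ± 21.3 to 578 ± 25.2 CPM (log2 -0.77, adjusted p = 2.9e-07). Of 28 further glycolysis genes 10 were higher and 7 lower. In OVCAR8, 11 of 43 further hypoxia genes were higher and 2 lower, against 4.94% and 4.91% of all genes, with STC2 going from 53.4 ± 1.84 to 182 ± 8.58 CPM (log2 1.72, adjusted p = 3.7e-08). In 5637 NR cells given drug, 20 of 42 further hypoxia genes were lower and 9 higher, against 21.1% and 18.4% of all genes. VEGFA went from 131 ± 7.66 to 79.3 ± 4.84 CPM (log2 -0.85, adjusted p = 2.4e-07), and IGFBP3, an IGF-binding protein gene, went from 145 ± 4.59 to 668 ± 16 CPM (log2 2.08, adjusted p = 7.5e-14). In OVCAR8 NR cells 5 of 43 were lower and 1 higher, against 0.747% and 0.642% of all genes, and that 1 was VEGFA (from 22.9 ± 0.477 to 33.8 ± 0.403 CPM (log2 0.54, adjusted p = 0.0073)), a call lost without NR neratinib replicate 1 (adjusted p = 0.051).

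Some values are uncertain because genes overlap and the strand setting of the counting is not given in the sources used here. SPTSSA overlaps EGLN3 and had 815% of its counts, ARHGEF39 overlaps CA9 with 7113%, UFSP2 overlaps ANKRD37 with 1861%, and RP11-192H23.4 overlaps ALDOC with 351.4%. CSNK1D overlaps SLC16A3 with 93.8%, RAB11B-AS1 overlaps ANGPTL4 with 70.2%, PDLIM4 overlaps P4HA2 with 68% and SENP1 overlaps PFKM with 49%. UCN2 overlaps PFKFB4 with 43.1% and PNMA2 overlaps BNIP3L with 33.3%. Processed pseudogenes named after GAPDH, 45 in all, held 0.323% of the counts of GAPDH, and the 6 named after LDHA held 0.192%.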

How the data were processed

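RNA of 24 libraries (stranded TruSeq mRNA, paired-end, per the labels' protocols) was deposited by the authors as raw read counts per gene. The submitters' processing notes name FastQC, STAR 2.5.3a, featureCounts 1.15.2, DESeq2 1.18.1 and hg19, without their order or the strand setting. Counts were tested with edgeR 4.0.16 in R 4.3.3 by the quasi-likelihood test, after filterByExpr and TMM scaling, with Benjamini-Hochberg adjustment over all genes tested and a threshold of 0.05. Each line was fitted alone (12 libraries, 8 residual degrees of freedom), and line differences with all 24 (16 degrees of freedom). CPM divides counts by the library total. Scaling by total counts alone, without TMM, placed the median over all genes at 0.13, 0.12 and 0.11 on the log2 scale for neratinib in parental 5637, NR 5637 and parental OVCAR8. Alternatives were DESeq2 1.42.0, other scalings and filters, a replicate block, the 6 libraries compared alone and omission of single libraries. Among these, the share of all genes called is printed only for omission of OVCAR8 parental control replicate 2. The genes described, the wider lists and the markers were chosen with earlier results of these data known. Genes eligible for single-library values were the 4 largest rises and falls per comparison among members called at a mean of 5 CPM or more in a group. HIF1A, EPAS1, LDHA, LDHB, HK1, HK2, SLC2A1, PGK1, GAPDH and CA9 were added to them, and in interactions and line differences the 3 largest each way were named. Not all single-library values are printed, such as those of HK1 and GAPDH in OVCAR8 and of EPAS1 with drug in NR 5637. Of the wider lists, up to 3 called genes each way were eligible per comparison. Further members were named to account for all 40.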

Additional observations from a re-analysis of the deposited data

Results flagged for a closer look

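Some drug effects differed between resistant and parental cells, and some effects differed between the lines, each by a test of the difference itself. In 5637 the drug effect in NR minus that in parental cells was -1.93 for NDRG1, -1.23 for BNIP3, -0.75 for PFKFB3 and -0.69 for SLC2A1 on the log2 scale. The same difference was 0.51 for PDK3, 0.44 for LDHB, 0.41 for PKM and 0.32 for HIF1A. In OVCAR8 it was -1.98 for EPAS1, -1.15 for NDRG1, 0.56 for PKM, 0.55 for LDHA and 0.54 for PGAM1.

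Between the lines, the drug effect in parental OVCAR8 minus that in parental 5637 was 2.39 for EPAS1, 0.99 for HK2, 0.40 for LDHA, -0.70 for NDRG1, -0.50 for P4HA1 and -0.48 for HILPDA. The calls of HILPDA and P4HA1 were lost on leaving out single libraries (adjusted p up to 0.092 and 0.056), and that of HILPDA also without a filter on low counts (adjusted p = 0.12). The doses differed between the lines, so line and dose cannot be told apart here. The difference between NR and parental cells without drug, in OVCAR8 minus that in 5637, was 1.09 for SLC2A1, 0.58 for PFKM and 0.44 for GAPDH. It was -2.59 for EGLN3, -2.34 for BNIP3, -2.34 for ANGPTL4, -1.09 for LDHA, -0.82 for EPAS1 and -0.75 for HK1.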

How the results depend on the processing

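Counts of members called are given here where an alternative moved them by over 1.5-fold. The share of all genes called under each alternative in this section is not given. The exception is omission of OVCAR8 parental control replicate 2, described above. The counts therefore show how calls depend on the setting and are no result about the members. With the 6 libraries compared alone, glycolytic members higher with drug in parental 5637 numbered 2 (1 in the model of the whole line), hypoxia members higher with drug in NR 5637 numbered 0 (1), and hypoxia members lower in NR than parental 5637 on drug numbered 0 (1). In OVCAR8 the same setting gave 4 hypoxia members lower with drug in parental cells (7), 2 glycolytic members higher (8) and 0 lower (1) in NR cells without drug, and 16 glycolytic members lower (7), 7 hypoxia members lower (4) and 2 higher (0) with drug in NR cells. DESeq2 gave 11 glycolytic members lower and 1 hypoxia member higher for neratinib in NR OVCAR8, and 2 glycolytic members lower for the OVCAR8 interaction (0). A filter of 1 CPM in 3 libraries gave 2 glycolytic members higher with drug in parental 5637 and 2 lower for the OVCAR8 interaction. Scaling by total counts gave 2 glycolytic members higher with drug in parental 5637, 2 hypoxia members higher with drug in NR 5637, 0 glycolytic members lower in NR OVCAR8 without drug and 1 lower for the OVCAR8 interaction. Without a filter the values were 2, 5 glycolytic members higher for the 5637 interaction (3), 0 and 1, and 2 hypoxia members were lower for the line difference of the parental drug effect (4).

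The labels do not say whether a replicate number links dishes of different groups, and no clear shared shift of same-numbered libraries was seen. Deviations of same-numbered libraries from their group means correlated at -0.116 to 0.111 in 5637 (2 of 18 pairs over 0.1) and at -0.0984 to 0.0978 in OVCAR8 (0 of 18). With the replicate block, neratinib in NR OVCAR8 lowered 2 glycolytic (7) and 2 hypoxia members (4), and 0 glycolytic members were lower in NR OVCAR8 without drug (1). The block moved no other count by over 1.5-fold.

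Leaving out single libraries moved further counts. For 5637, glycolytic members higher with drug numbered 1 to 2 in parental and 0 to 1 in NR cells, hypoxia members higher with drug in NR cells 0 to 1, hypoxia members lower in NR cells 1 to 2 without drug and 0 to 2 on drug, and glycolytic members higher for the interaction 3 to 5. For OVCAR8 NR cells without drug, glycolytic members higher numbered 5 to 14 and lower 0 to 2, and hypoxia members lower 0 to 1. For neratinib in NR OVCAR8, glycolytic members lower numbered 1 to 16, hypoxia members lower 0 to 6 and higher 0 to 2. For NR OVCAR8 on drug, glycolytic members lower numbered 0 to 1. For the OVCAR8 interaction, glycolytic members higher numbered 1 to 5 and lower 0 to 3, and hypoxia members higher 0 to 1 and lower 2 to 4. For the line difference of the parental drug effect, glycolytic members higher numbered 4 to 9 and lower 0 to 1, and hypoxia members lower 1 to 4. The cause was not tested.

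Signs turned only for members with no call. SLC2A1 with drug in parental cells went to 0.034 in 5637 and 0.091 in OVCAR8 with scaling by total counts, and to 0.011 in OVCAR8 without a filter. On leaving out single libraries SLC2A1 ranged from -0.063 to 0.047 in parental OVCAR8 and from -0.013 to 0.15 for the line difference. The 5637 interaction ranged from -0.015 to 0.095 for EPAS1 and from -0.083 to 0.027 for GAPDH. In OVCAR8 NR over parental cells without drug, HIF1A ranged from -0.36 to 0.010, GAPDH from -0.010 to 0.12 and LDHB from -0.44 to 0.047. LDHB with drug in NR OVCAR8 ranged from -0.054 to 0.0023. The line difference of NR over parental ranged from -0.61 to 0.36 for CA9 and from -0.037 to 0.26 for HK2.

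Where edgeR called 0 members, unadjusted p values under 0.05 were found for 0 glycolytic members higher with drug in NR 5637, parental OVCAR8 and NR OVCAR8, and DESeq2 called 0 there. In OVCAR8 such p values were found for 1 hypoxia member lower in NR cells without drug (DESeq2 0), 1 hypoxia member higher with drug in NR cells (DESeq2 1), and for the interaction 2 glycolytic members lower (DESeq2 2) and 1 hypoxia member higher (DESeq2 0). The common biological coefficient of variation was 8.03% in 5637 and 12.9% in OVCAR8, so small changes were harder to detect in OVCAR8 with all libraries. The OVCAR8 value includes parental control replicate 2, and no value without that library is given. Without it, 11.9% of all genes were lower with drug in NR OVCAR8, against 0.747% with it. CA9, ANGPTL4, ANKRD37 and SLC2A3 in 5637 rest on low counts.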
